A study of Homo sapiens with 39 samples.

Results

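The mRNAs of the ERBB receptor tyrosine kinases and of their closest adaptors were followed in HCC1428-LTED cells, a human breast cancer line kept without estrogen for a long term. The 8 members were chosen by symbol: the receptors ERBB2, ERBB3, ERBB4 and EGFR, the adaptors GRB7, GRB2 and SHC1, and the receptor inhibitor ERRFI1. All 8 were among the 46706 symbols of the RNA sequencing table and among the 14404 that averaged 1 TPM or more over all libraries and were tested; TPM is a level scaled to transcript length and to the library's total. Cells were treated for 24 h with 30 or 300 nM of an estrogen receptor ligand, or with the vehicle DMSO. The ligands were fulvestrant, which is an estrogen receptor degrader in clinical use, SAR439859, GDC-0810, AZD9496, and 2 hybrid molecules: GDC-SAR, which joins the GDC-0810 scaffold to the side chain of SAR439859, and AZD-SAR, which joins the AZD9496 scaffold to that same side chain. This gave 13 groups of 3 libraries, 39 in all. Every group, DMSO included, was grown in IMEM with 5% charcoal-stripped serum, so the DMSO cells were also short of estrogen. All the results come from 1 cell line, and no label ties the 3 libraries of a group to separate cultures, so p-values measure the spread between these libraries.

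ERBB receptors sit in the plasma membrane and signal as pairs. A growth factor of the EGF or neuregulin family binds EGFR, ERBB3 or ERBB4, the bound receptor pairs with another family member, and tyrosines in the intracellular tails become phosphorylated. ERBB2 has no known ligand of its own and acts as the preferred partner, while ERBB3 has a weak kinase and recruits PI3-kinase strongly. The phosphorylated tails are docking sites for GRB2 and SHC1, which lead to RAS and ERK, and for GRB7; ERRFI1 (also called MIG6) binds the kinase domain and blocks it. In breast cancer cells the estrogen receptor and ERBB2 pathways are known to restrain or replace each other, which is why the level of ERBB mRNAs under estrogen receptor ligands is of interest.

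The genes lie in different parts of the genome, with the exception of ERBB2 and GRB7, which are neighbours. Coordinates are GENCODE release 29 on GRCh38, on which ERBB2 spans chr17:39687914-39730426 on the plus strand. GRB7 spans chr17:39737927-39747291 on the same strand and begins 7501 bases past the end of ERBB2. ERBB3 lies at chr12:56076799-56103505, plus strand. ERBB4 lies at chr2:211375717-212538841, minus strand. EGFR lies at chr7:55019021-55211628, plus strand. GRB2 lies at chr17:75318076-75405709, minus strand, SHC1 at chr1:154962298-154974395, minus strand, and ERRFI1 at chr1:8004404-8026308, minus strand. Within the annotation, the 3′ end of ERBB2 overlaps MIEN1 on the opposite strand over 1931 bases and SHC1 overlaps PYGO2 on the same strand over 1556 bases. The libraries were prepared with a stranded kit, but whether the counting used strand is not given in the sources used here, so reads in the shared bases cannot be told apart.

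The promoter windows of the 3 members that represent the patterns described here are shown: a receptor whose mRNA was higher with nearly every ligand (ERBB2), a receptor that was called with 1 ligand group (ERBB4) and an adaptor whose mRNA was lower with some ligands (GRB2). Each window covers 250 bases before to 50 bases after an annotated start (RefSeq, GRCh38.p14); 6 of the 8 members had a window in the table used, ERBB3 and GRB7 excepted. Capitals mark matches, on either strand, to GGTCA, 1 arm of an estrogen response element; GCCNNNGGC, recognised by AP-2 factors, and GTAAACA, recognised by forkhead factors, were searched in the same way. The windows are chr17:39687844-39688143 (plus strand) for ERBB2, chr2:212538753-212539052 (minus strand) for ERBB4 and chr17:75405629-75405928 (minus strand) for GRB2.
ERBB2: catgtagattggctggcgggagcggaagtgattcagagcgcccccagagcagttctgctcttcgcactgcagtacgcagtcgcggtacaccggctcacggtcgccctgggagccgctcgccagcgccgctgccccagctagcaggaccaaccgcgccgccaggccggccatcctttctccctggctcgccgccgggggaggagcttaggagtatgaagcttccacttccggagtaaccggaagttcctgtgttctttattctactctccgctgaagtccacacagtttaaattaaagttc
ERBB4: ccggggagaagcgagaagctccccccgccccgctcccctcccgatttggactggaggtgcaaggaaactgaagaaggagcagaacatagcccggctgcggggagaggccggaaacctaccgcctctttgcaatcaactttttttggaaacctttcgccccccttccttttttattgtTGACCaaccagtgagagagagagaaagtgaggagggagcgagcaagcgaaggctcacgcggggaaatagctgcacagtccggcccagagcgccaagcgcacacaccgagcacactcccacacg
GRB2: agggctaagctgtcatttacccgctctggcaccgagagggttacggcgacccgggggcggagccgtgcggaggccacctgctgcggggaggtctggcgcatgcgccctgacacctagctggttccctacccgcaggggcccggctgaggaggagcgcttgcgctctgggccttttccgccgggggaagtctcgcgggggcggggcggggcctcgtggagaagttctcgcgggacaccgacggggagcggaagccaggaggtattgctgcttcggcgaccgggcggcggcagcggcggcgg
The ERBB4 window held 1 GGTCA match, beginning 73 bases before the start, and the ERBB2 and GRB2 windows held none of the 3 motifs. GGTCA was present in 37.4% of 35116 windows in the table, the AP-2 motif in 23.2% and the forkhead motif in 3.42%. The ERBB2 window belongs to the most upstream annotated start, while the principal ERBB2 transcript of GENCODE begins at base 39700080 of the chromosome, outside the window.

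Without ligand, the members covered a wide range of levels. GRB2 was the most abundant at 169.9 ± 19.5 TPM in DMSO (SD, n = 3), above 95.7% of the tested symbols. ERBB3 followed at 61.4 ± 1.65 TPM and ERBB2 at 26.03 ± 3.68 TPM, above 87.6% and 73.2% of symbols. SHC1 averaged 24.1 ± 6.73 TPM, ERBB4 14.6 ± 4.77 TPM and GRB7 11.2 ± 1.74 TPM. ERRFI1 at 4.88 ± 0.687 TPM and EGFR at 2.83 ± 0.667 TPM were the least abundant, EGFR lying above 24.6% of symbols. Summed over the 4 receptors, ERBB3 gave 58.7 ± 4.85% of the TPM in DMSO, ERBB2 24.8 ± 2.33%, ERBB4 13.8 ± 3.93% and EGFR 2.70 ± 0.613%.

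The labelled cell type was checked against marker genes. All 8 luminal epithelial markers were tested, and their summed level was 6588 to 13520 TPM in ligand libraries and 6545 to 7403 TPM in DMSO libraries. Of them GATA3, CDH1 and FOXA1 were called higher in 11, 11 and 12 of the 12 ligand groups, and KRT18 was called lower in 9. KRT19 was called lower in 6 and higher in 2, KRT8 higher in 2, and EPCAM and ESR1 in 0. None of the 5 basal markers reached a mean of 1 TPM, with summed levels of 0.492 to 4.06 TPM in ligand libraries and 0.688 to 1.94 TPM in DMSO libraries, and KRT5 was at 0 in 19 of 39 libraries. Of 8 stromal, endothelial and immune markers only COL1A1 and CD68 were tested, the list summing to 14.3 to 31.5 TPM in ligand libraries and 14.7 to 17.7 TPM in DMSO libraries, with COL3A1 at 0 in 33 libraries and PTPRC in 30. COL1A1 was called higher in 4 groups, those of the 2 hybrids at both doses, with means of 13.4 to 14.6 TPM there against 8.14 TPM in DMSO, and CD68 was called lower in 1, SAR439859 at 30 nM (in 3 with median-of-ratios scaling). Their part in the results on GRB2 and the receptors with these ligands was not tested. Among estrogen receptor genes, PGR, a classical receptor target, fell in 12 of 12 ligand groups, with log2 differences of -3.74 to -1.79, and ESR1 passed the test in 0 of 12, with differences of -0.41 to 0.18. Libraries listed between 15818 and 26756 symbols above 0. Depth is unknown because TPM keeps no read totals. TPM gives a share of the library, so cell number and the amount of RNA per cell cannot be read from it.

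**Figure D1:**
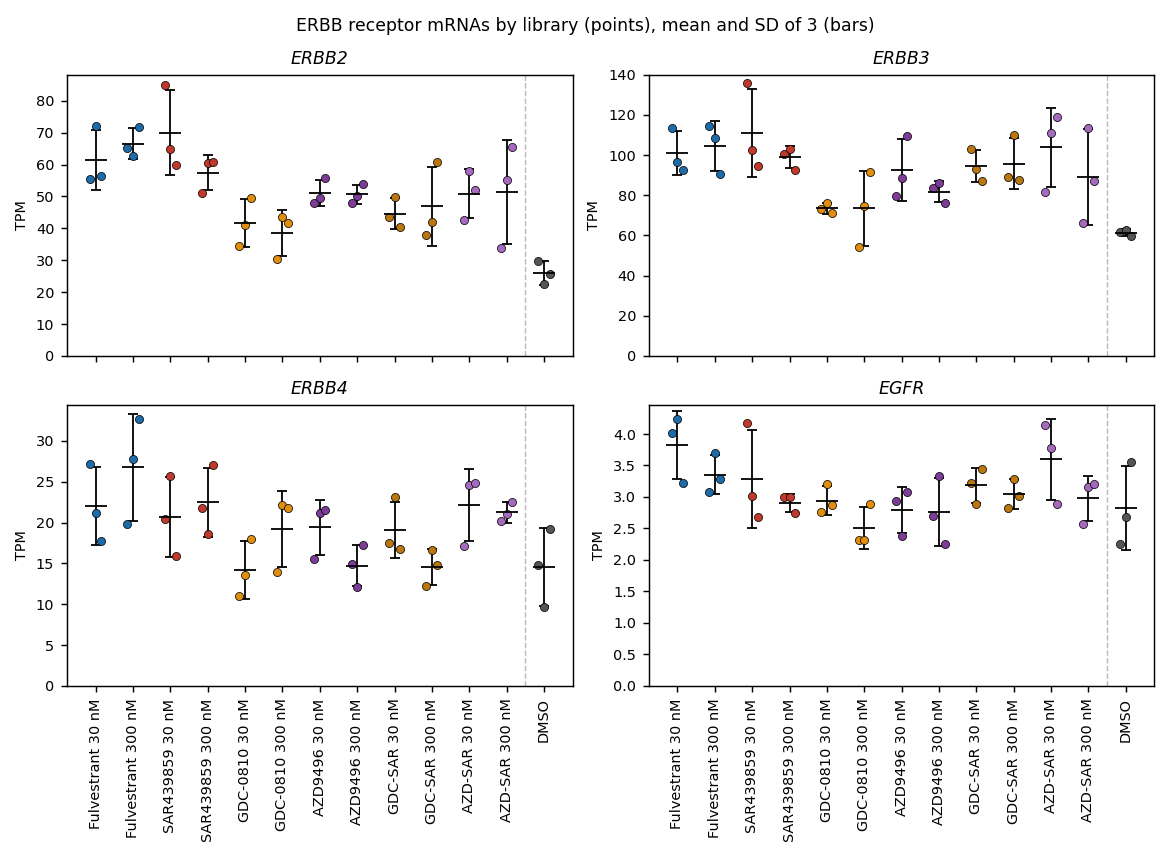
TPM of the 4 ERBB receptors (vertical axes, linear from 0) in each library (points, 3 per group) of the 12 ligand groups and, right of the dashed line, DMSO; horizontal ticks are means and bars SD. All ligand libraries of ERBB2 lie above the 3 DMSO libraries (22.5 to 29.8 TPM), those of ERBB3 do so in 11 of 12 groups, and EGFR overlaps DMSO in every group. The share of all symbols that separate in this way was not counted.

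ERBB2 mRNA was higher with every ligand than with DMSO, and the difference passed the test in 11 of 12 groups. All 12 comparisons used the same 3 DMSO libraries, whose library numbers lie apart from those of every ligand library. The smallest values came with GDC-0810 and the largest with fulvestrant and SAR439859. Fulvestrant gave 55.6, 72.2 and 56.4 TPM at 30 nM and 65.3, 62.6 and 71.9 TPM at 300 nM, and SAR439859 gave 85.1, 64.8 and 59.96 TPM at 30 nM and 51.1, 60.4 and 60.8 TPM at 300 nM. All 12 of these libraries were above the 3 DMSO libraries, which had 29.8, 22.5 and 25.8 TPM, by more than the width of the DMSO range. AZD9496 gave 47.8, 49.5 and 55.7 TPM at 30 nM and 48.0, 50.1 and 53.9 TPM at 300 nM. GDC-0810 gave 34.3, 41.1 and 49.5 TPM at 30 nM and 30.4, 43.6 and 41.6 TPM at 300 nM, so that its lowest library, 30.4 TPM, was only just above the highest DMSO library. With the hybrids, the libraries had 43.6, 49.8 and 40.3 TPM and 37.8, 42.1 and 60.9 TPM for GDC-SAR at 30 and 300 nM. AZD-SAR gave 42.6, 57.97 and 52.1 TPM at 30 nM and 33.7, 55.0 and 65.6 TPM at 300 nM. No ligand library overlapped the DMSO range in any of the 12 groups. The share of all symbols that separate in this way, or are called in as many groups, was not counted. The separation therefore does not set ERBB2 apart from other genes.

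On the log2(TPM + 1) scale, used for all tests and understating changes of low genes, the ERBB2 differences from DMSO were 1.21 and 1.33 with fulvestrant at 30 and 300 nM, with a standard error of 0.20 for every comparison (limma, adjusted p = 3.8e-05 and 9.04e-06, adjusted over all 14404 symbols by the Benjamini-Hochberg method, threshold 0.05). With SAR439859 they were 1.38 (adjusted p = 3.69e-06) and 1.12 (adjusted p = 8.37e-05). With AZD9496 they were 0.95 (adjusted p = 0.00166) and 0.94 (adjusted p = 0.00282). With GDC-SAR they were 0.76 (adjusted p = 0.00566) and 0.80 (adjusted p = 0.00365), and with AZD-SAR 0.94 (adjusted p = 0.000811) and 0.91 (adjusted p = 0.000864). With GDC-0810 the difference was 0.65 (adjusted p = 0.0212) at 30 nM and 0.54 (adjusted p = 0.0572) at 300 nM, and the 300 nM value did not pass. The GDC-0810 call at 30 nM was lost without GDC-0810 replicate 2 or 3 or DMSO replicate 2 or 3, with adjusted p of 0.051 to 0.107, and with no filter on low values (adjusted p = 0.0549). The 300 nM difference passed without its lowest library (adjusted p = 0.0392) and with median-of-ratios scaling (adjusted p = 0.0238). With only the AZD-SAR 300 nM and DMSO libraries in the fit, that difference did not pass (adjusted p = 0.0611).

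ERBB2 and the opposite-strand gene MIEN1, which share bases at the 3′ end, moved in the same direction. MIEN1 was called higher in 11 of the 12 ligand groups, which had group means of 78.9 to 102.7 TPM against 39.6 ± 3.55 TPM in DMSO and log2 differences of 0.96 to 1.35. PGAP3, which overlaps ERBB2 at its 5′ side on the opposite strand, averaged 2.25 TPM in DMSO and was called in none of the 12. How far shared reads contribute to either gene was not tested.

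ERBB3, the receptor that couples most strongly to PI3-kinase, was the most abundant receptor and was called higher in 9 of 12 groups. Fulvestrant libraries had 113, 96.7 and 92.5 TPM at 30 nM and 114, 109 and 90.7 TPM at 300 nM. SAR439859 libraries had 136, 102.7 and 94.6 TPM at 30 nM and 100.5, 103.3 and 92.7 TPM at 300 nM, against closely spaced DMSO libraries of 61.9, 62.7 and 59.5 TPM. Those 2 ligands had log2 differences of 0.70, 0.75, 0.83 and 0.68 (limma, SE 0.18, adjusted p = 0.000698 to 0.00488), all passing. GDC-SAR libraries had 103.1, 93.0 and 87.2 TPM at 30 nM and 89.2, 110.3 and 87.8 TPM at 300 nM, with differences of 0.61 (adjusted p = 0.0123) and 0.63 (adjusted p = 0.011). AZD-SAR libraries had 81.7, 111 and 119 TPM at 30 nM and 66.4, 114 and 87.3 TPM at 300 nM, with differences of 0.73 (adjusted p = 0.00306) and 0.50 (adjusted p = 0.0357).

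GDC-0810 stood lowest for ERBB3 also. Its libraries had 73.2, 76.4 and 71.0 TPM at 30 nM and 54.4, 74.5 and 91.4 TPM at 300 nM, of which 1 was below the DMSO range. The differences were 0.26 (adjusted p = 0.338) and 0.22 (adjusted p = 0.414), with 95% intervals of -0.10 to 0.61 and -0.13 to 0.58. AZD9496 libraries had 79.6, 88.8 and 109 TPM at 30 nM and 83.4, 86.1 and 76.2 TPM at 300 nM, with differences of 0.57 (adjusted p = 0.0326) and 0.41 (adjusted p = 0.189), the 300 nM value passing with only the libraries compared (adjusted p = 0.0491). The AZD9496 call at 30 nM was lost without treated replicate 3, the highest (adjusted p = 0.178), without replicate 2 or without any 1 DMSO library, with no filter on low values, and with median-of-ratios scaling, where the difference was 0.36 (adjusted p = 0.123). In AZD9496 at 30 nM the median of all genes was 0.18 higher than in DMSO before scaling, the only ligand group in which scaling moved that median by more than 0.1. The AZD-SAR 300 nM call was lost without treated replicate 2, the highest (difference 0.31, adjusted p = 0.263), without replicate 3 or without any 1 DMSO library, with no filter, and with only the libraries compared. The GDC-SAR calls were lost without replicate 1 at 30 nM (adjusted p = 0.056) and without replicate 2 at 300 nM (adjusted p = 0.0735).

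ERBB4, the other neuregulin receptor, had higher mean TPM than DMSO in 10 of 12 groups, but 1 comparison passed the test. Fulvestrant at 300 nM gave 19.8, 27.8 and 32.7 TPM, all above the widely spread DMSO libraries of 14.8, 9.71 and 19.2 TPM, with a log2 difference of 0.85 (limma, SE 0.24, adjusted p = 0.0106). That call was lost without fulvestrant replicate 3, the highest (adjusted p = 0.0633), without DMSO replicate 2 (adjusted p = 0.111) and with only the libraries compared (adjusted p = 0.0854). AZD-SAR at 300 nM gave 20.1, 21.0 and 22.6 TPM, again all above DMSO, with a difference of 0.56 (adjusted p = 0.0806). The lowest differences were those of GDC-0810 at 30 nM (-0.02), GDC-SAR at 300 nM (0.04) and AZD9496 at 300 nM (0.05). DMSO replicate 3, with 19.2 TPM, weighed on these values: without it, the fulvestrant 30 nM, SAR439859 30 and 300 nM, and AZD-SAR 30 and 300 nM differences passed the test as well, with adjusted p of 0.0202 to 0.0471. The SAR439859 300 nM and AZD-SAR 30 nM differences also passed without replicate 2 and replicate 1 of their own group.

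EGFR, the receptor for EGF, was low in every group and was called in none of the 12 comparisons. Its group means were 2.50 to 3.82 TPM with ligands against 2.83 ± 0.667 TPM in DMSO, and the ligand libraries, 2.25 to 4.24 TPM with a median of 3.02 TPM, overlapped the DMSO libraries (2.25, 2.67 and 3.56 TPM) in every group. The differences ran from -0.12 to 0.34 (SE 0.15), and all 95% intervals lay between -0.43 and 0.66. The largest, fulvestrant at 30 nM, had an interval of 0.03 to 0.66 and an adjusted p of 0.121.

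**Figure D2:**
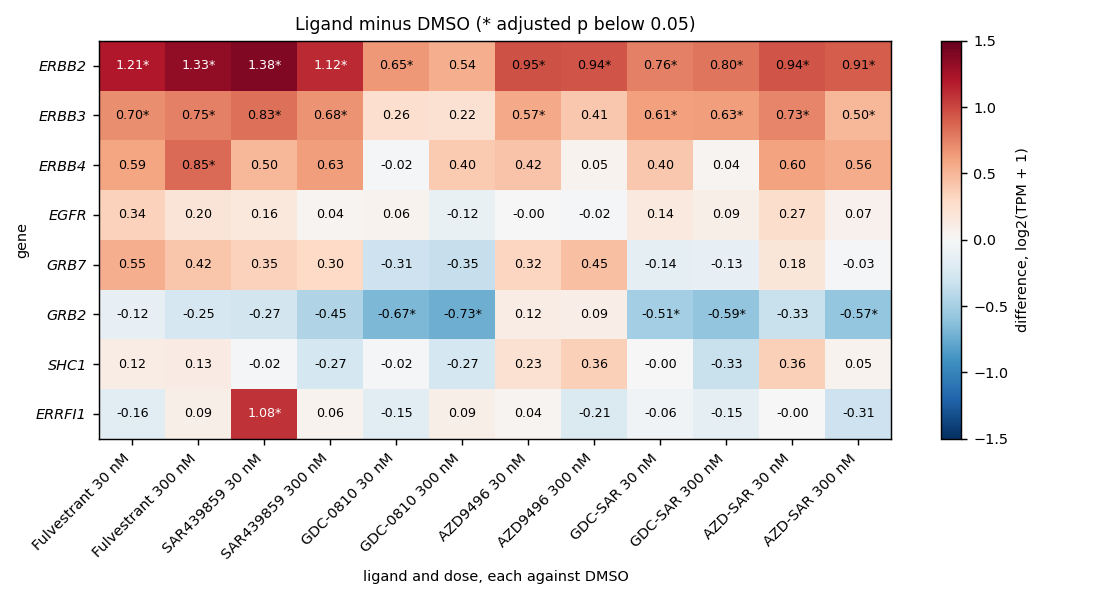
Differences from DMSO in log2(TPM + 1) for the 8 members (rows) in each ligand and dose (columns), red above and blue below DMSO, with an asterisk where the limma adjusted p was under 0.05. ERBB2 carries 11 asterisks and ERBB3 9, both in the upper rows, and GRB2 carries 5, all on values below 0.

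**Figure D3:**
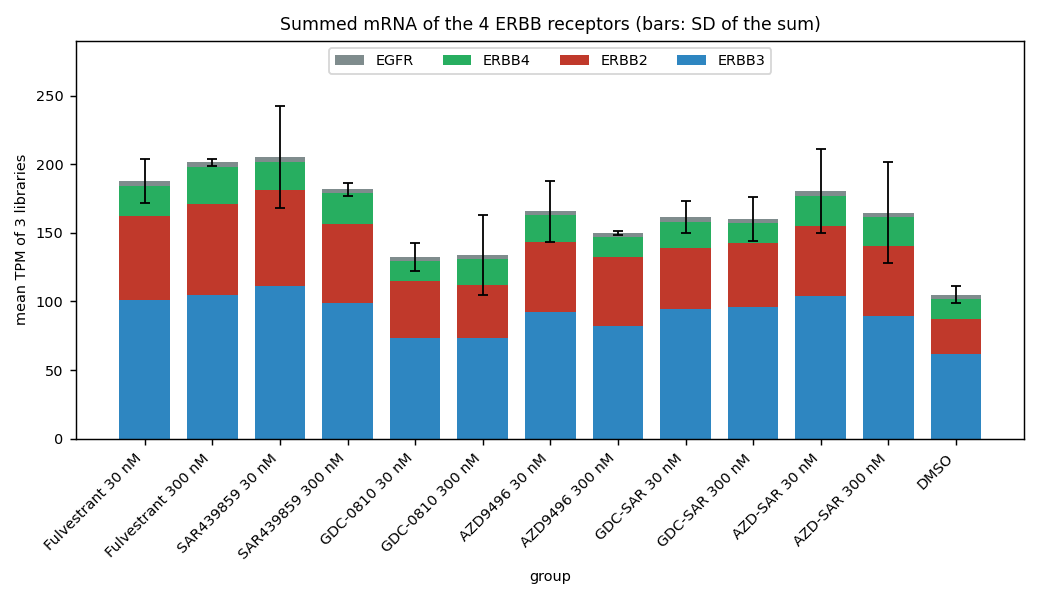
Mean TPM of the 4 ERBB receptors, stacked for each group of 3 libraries (vertical axis linear from 0); the black bars are the SD of the summed TPM. Every ligand group sums to more than DMSO, from 132 and 134 TPM with GDC-0810 to 205 TPM with SAR439859 at 30 nM, against 104.8 TPM in DMSO, and ERBB3 is the largest part of every stack.

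The sum of the 4 receptor mRNAs, dominated by ERBB3 and ERBB2, averaged 205 ± 37.1 TPM with SAR439859 at 30 nM and 201 ± 2.36 TPM with fulvestrant at 300 nM, and was lowest among ligands with GDC-0810, 132 ± 10.1 TPM at 30 nM and 134 ± 29.3 TPM at 300 nM, against 104.8 ± 6.29 TPM in DMSO. The ERBB2 share of the sum was 27.6% to 34.1% in ligand groups against 24.8 ± 2.33% in DMSO. The ratio of ERBB2 to ERBB3 averaged 0.474 to 0.646 in ligand groups and 0.424 ± 0.0618 in DMSO. In 7 groups (fulvestrant, SAR439859 and AZD9496 at both doses and AZD-SAR at 300 nM) every ligand library had a higher ratio than every DMSO library, and the exact permutation p was 0.1 (two-sided), the smallest that 3 against 3 libraries allow. In the other 5 groups the exact p was 0.2 to 0.7, the highest being GDC-SAR at 300 nM.

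In order of mean level, ERBB2 ran from SAR439859 30 nM (69.9 ± 13.3 TPM) and fulvestrant 300 nM (66.6 ± 4.79 TPM) through fulvestrant 30 nM, SAR439859 300 nM and the AZD9496 and AZD-SAR groups, all between 50.7 and 61.4 TPM, to GDC-SAR 300 and 30 nM (46.9 and 44.6 TPM), GDC-0810 30 and 300 nM (41.6 ± 7.61 and 38.5 ± 7.13 TPM), and DMSO last (26.03 ± 3.68 TPM). Replicate 1 of SAR439859 30 nM, at 85.1 TPM for ERBB2 and 136 TPM for ERBB3, had the highest median-of-ratios size factor of the 39 libraries, 1.20. With that scaling the differences of SAR439859 30 nM from DMSO were 1.28 for ERBB2 and 0.72 for ERBB3. The part of this library in the order of groups and in the summed receptor level was not tested. Libraries of neighbouring groups overlapped at 11 of 12 steps, all except the step from GDC-0810 300 nM to DMSO. For the other 7 members libraries of neighbouring groups overlapped at all 12 steps, so no order between neighbours was larger than the spread of libraries. Sorting by mean puts groups of similar level side by side, which favours overlap for any gene. These counts therefore say nothing about groups further apart, and the share over all symbols was not counted.

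**Figure D4:**
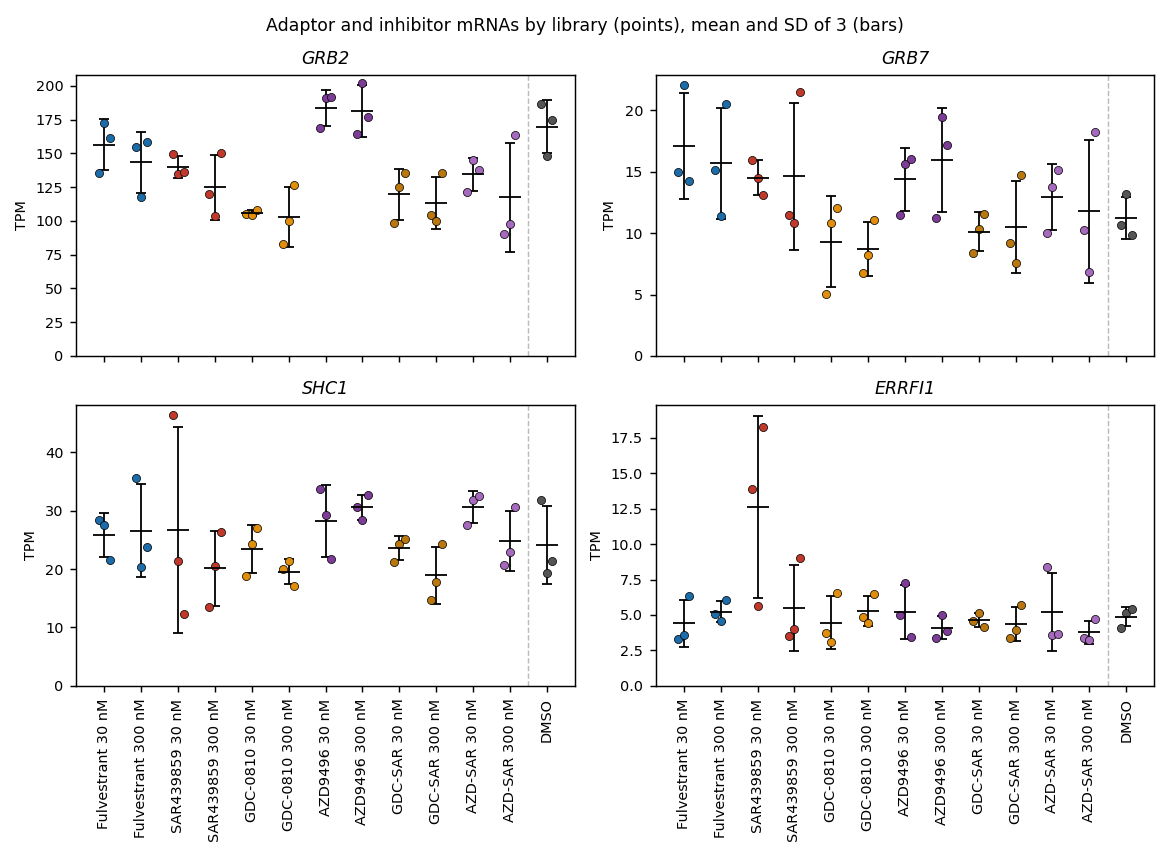
TPM of the adaptors GRB2, GRB7 and SHC1 and of the inhibitor ERRFI1 (vertical axes, linear from 0) in each library (points, 3 per group) of the 12 ligand groups and, right of the dashed line, DMSO; ticks are means and bars SD. GRB2 is lowest with GDC-0810 and near DMSO with AZD9496, and 2 of the 3 ERRFI1 libraries of SAR439859 at 30 nM lie above 13 TPM.

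GRB2, the adaptor that links phosphorylated receptors to the RAS exchange factor SOS, was the member that fell. It was called lower in 5 of 12 groups, those of GDC-0810 at both doses, GDC-SAR at both doses and AZD-SAR at 300 nM. GDC-0810 gave 104.97, 104.1 and 108.4 TPM at 30 nM and 82.7, 99.6 and 127 TPM at 300 nM, all below the DMSO libraries of 186, 148 and 175 TPM. GDC-SAR gave 98.4, 125 and 136 TPM at 30 nM and 104.03, 100.2 and 136 TPM at 300 nM, again all below. AZD-SAR gave 121, 145 and 137 TPM at 30 nM, all below the DMSO range although the difference did not pass, and 90.4, 97.9 and 164 TPM at 300 nM, where 1 library lay within the range. AZD9496 gave 169, 191 and 192 TPM at 30 nM and 165, 202 and 177 TPM at 300 nM, which overlapped DMSO. SAR439859 gave 149, 135 and 136 TPM at 30 nM and 120.2, 103.7 and 151 TPM at 300 nM, and fulvestrant gave 135, 173 and 161 TPM at 30 nM and 155, 117 and 159 TPM at 300 nM, each overlapping DMSO in at least 1 library.

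The GRB2 log2 differences from DMSO were -0.67 (adjusted p = 0.0108) and -0.73 (adjusted p = 0.0064) with GDC-0810 at 30 and 300 nM (limma, SE 0.18). They were -0.51 (adjusted p = 0.0424) and -0.59 (adjusted p = 0.0208) with GDC-SAR, and -0.33 (adjusted p = 0.206) and -0.57 (adjusted p = 0.0194) with AZD-SAR. They were -0.27 (adjusted p = 0.286) and -0.45 (adjusted p = 0.0691) with SAR439859, of which the 300 nM value passed with median-of-ratios scaling (adjusted p = 0.0443) and without its replicate 3 (adjusted p = 0.0286). With fulvestrant they were -0.12 (adjusted p = 0.699) and -0.25 (adjusted p = 0.369). With AZD9496 they were 0.12 (adjusted p = 0.739) and 0.09 (adjusted p = 0.846), and both changed sign, at values that did not pass, with median-of-ratios scaling. Of the 5 GRB2 calls, 4 were lost when 1 library was left out. The GDC-0810 300 nM call was lost without its lowest library, replicate 1 (adjusted p = 0.0634) and with only the libraries compared (adjusted p = 0.0543). The GDC-SAR calls were lost without treated replicate 1 or 2 or DMSO replicate 1 or 3, with adjusted p of up to 0.207 at 30 nM and 0.0994 at 300 nM, and the AZD-SAR 300 nM call likewise, with adjusted p of up to 0.139. With no filter both GDC-SAR calls were lost (adjusted p = 0.0979 and 0.051), and with only the libraries compared the AZD-SAR 300 nM call was lost (adjusted p = 0.151). The GDC-0810 30 nM call held in all 6 fits that left out 1 of its own or the DMSO libraries.

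GRB7, the adaptor encoded beside ERBB2 and often expressed with it in tumours, did not pass in any of the 12 comparisons. Its group means were 8.70 to 17.1 TPM with ligands against 11.2 ± 1.74 TPM in DMSO, and ligand libraries ranged from 5.08 to 22.0 TPM with a median of 11.8 TPM. Fulvestrant at 30 nM gave 14.97, 22.0 and 14.2 TPM, the only group whose libraries all exceeded the DMSO libraries, 10.7, 13.2 and 9.82 TPM. The differences were -0.35 to 0.55 (SE 0.31), with intervals that reached as far as -0.98 and 1.18.

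SHC1, which passes the signal from the receptors to GRB2, passed in 0 of 12 comparisons, with differences of -0.33 to 0.36 (limma, SE 0.29) and adjusted p of at least 0.422. Its group means were 18.9 to 30.6 TPM with ligands against 24.1 ± 6.73 TPM in DMSO, and its libraries with SAR439859 at 30 nM were the most spread, at 46.3, 21.3 and 12.4 TPM. PYGO2, which shares 1556 bases with SHC1 on the same strand, was called lower in 7 of the 12 groups, with log2 differences of -1.08 to -0.80 in those from a DMSO mean of 17.5 TPM; what the shared bases contribute was not tested. The processed copies SHC1P1 and SHC1P2 averaged under 0.05 TPM.

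ERRFI1, the feedback inhibitor, was called higher with SAR439859 at 30 nM and in no other comparison with DMSO. There it had 13.9, 5.61 and 18.2 TPM, all above the DMSO libraries of 4.10, 5.14 and 5.39 TPM, with 1 library only just above. The high libraries, replicates 1 and 3, also stood at an extreme of the 39 libraries in other measures: replicate 1 had the highest median-of-ratios size factor, 1.20, and replicate 3 listed the fewest symbols above 0, 15818. The part of these features in the ERRFI1 result was not tested. The difference was 1.08 (limma, SE 0.33, adjusted p = 0.0165). It was lost without treated replicate 1 (adjusted p = 0.0659) or 3 (adjusted p = 0.116), without DMSO replicate 1 (adjusted p = 0.0628), and with only the libraries compared (adjusted p = 0.17). SAR439859 at 300 nM gave 3.51, 3.99 and 9.01 TPM, and its difference from DMSO was 0.06. In the other 10 ligand groups the group means were 3.77 to 5.27 TPM.

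The number of members called was set beside the share of all tested symbols called in the same comparison. With fulvestrant, 2 of 8 members passed at 30 nM and 3 at 300 nM, against 19.1% and 19.2% of all symbols. With SAR439859, 3 passed at 30 nM and 2 at 300 nM, against 25.5% and 24.1%. With GDC-0810, 2 passed at 30 nM and 1 at 300 nM, against 16.8% and 16.0%. With AZD9496, 2 passed at 30 nM and 1 at 300 nM, against 11.3% and 5.93%. With GDC-SAR, 3 passed at each dose, against 22.5% and 20.3%, and with AZD-SAR 2 at 30 nM and 3 at 300 nM, against 20.6% and 25.6%. With 8 members each call is 12.5% of them, so counts of 1 to 3, or 12.5% to 37.5%, do not set the members apart from these backgrounds. The median difference over the 8 members was -0.04 to 0.45, beside 0 to 0.18 over all symbols.

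Structural change in the ligand was compared between the hybrids and the parent ligands of their scaffolds, which differ in the side chain. Hybrid and parent libraries also carry separate runs of library numbers. As background, GDC-0810 and AZD9496 both end in an acrylic acid, and SAR439859 carries a fluoropropyl pyrrolidine side chain. With the GDC-0810 scaffold no member was called at either dose, against 1.28% of all symbols at 30 nM and 1.25% at 300 nM, and 0 and 1 members had unadjusted limma p below 0.05. With the AZD9496 scaffold no member was called at 30 nM, where 1 had an unadjusted p below 0.05 and 1.68% of symbols were called, and 1 member, GRB2, was called at 300 nM, against 8.57% of symbols. GRB2 was lower with AZD-SAR than with AZD9496 at 300 nM, with a log2 difference of -0.67 (limma, adjusted p = 0.0218), and at 30 nM its difference was -0.45 (adjusted p = 0.275). The libraries at 300 nM had 90.4, 97.9 and 164 TPM with AZD-SAR against 165, 202 and 177 TPM with AZD9496, with no overlap although the highest AZD-SAR library came within 1 TPM of the lowest AZD9496 library. The call was lost without AZD-SAR replicate 1 or 2 (adjusted p = 0.184 and 0.114), without AZD9496 replicate 2 or 3 (adjusted p = 0.124 and 0.0538), and with only the libraries compared (adjusted p = 0.238).

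**Figure D5:**
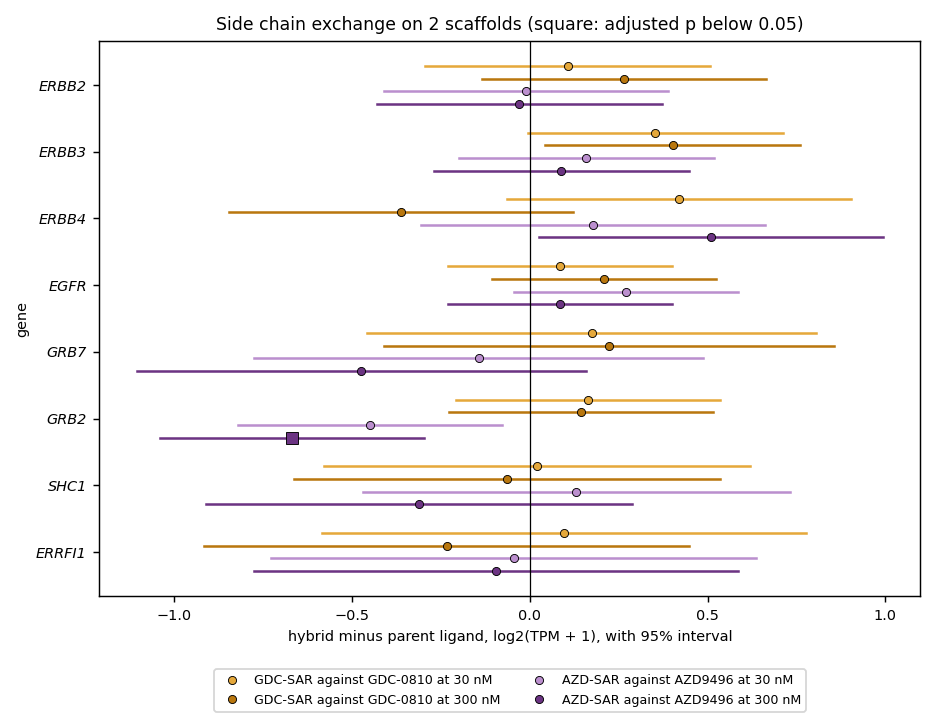
Differences in log2(TPM + 1) between each hybrid and the parent ligand of its scaffold (hybrid minus parent, 95% intervals as lines) for the 8 members, at 30 and 300 nM; the square marks the only value past the adjusted p threshold. The GRB2 values lie below 0 on the AZD9496 scaffold and just above 0 on the GDC-0810 scaffold, and most intervals cross 0.

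For the receptors the intervals bound how far the side chain moved the level. The ERBB2 intervals ran from -0.29 to 0.51 and from -0.13 to 0.67 for GDC-SAR minus GDC-0810 at 30 and 300 nM, and from -0.41 to 0.39 and from -0.43 to 0.37 for AZD-SAR minus AZD9496. ERBB3 was 0.35 and 0.40 higher with GDC-SAR than with GDC-0810 at 30 and 300 nM (adjusted p = 0.558 and 0.42), with a 95% interval of 0.04 to 0.76 at 300 nM, and neither passed. ERBB4 had the widest receptor intervals, reaching -0.84 and 0.99. Its 4 differences ran from -0.36 to 0.51, 3 of them above 0 (limma, adjusted p of at least 0.169). At 300 nM its AZD-SAR libraries, 20.1 to 22.6 TPM, all lay above those of AZD9496, 12.1 to 17.2 TPM. EGFR differences were 0.09 to 0.27, with intervals between -0.23 and 0.58, and none passed. The side chain effects on the 2 scaffolds were compared in an interaction test, in which no member passed at 30 nM or 300 nM, and in which 0% and 0.00694% of all symbols were called. The lowest member value was that of GRB2 at 300 nM, with a difference of -0.81 (unadjusted p = 0.0036, adjusted p = 0.189), followed by ERBB4 at 300 nM, 0.87 (adjusted p = 0.24).

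Other pairs of ligands were compared at matched dose, 26 in all, and 5 held a called member; p-values were adjusted over symbols within each pair and not over the pairs. ERBB2 was lower with GDC-0810 than with SAR439859 at 30 nM, with a difference of -0.73 (limma, adjusted p = 0.0211), and 3 of 8 members passed there against 6.16% of symbols. The others were ERBB3, with a difference of -0.57 (adjusted p = 0.0471), and ERRFI1, with -1.23 (adjusted p = 0.0226), both also lower with GDC-0810. ERBB2 was lower with GDC-0810 than with fulvestrant at 300 nM, with a difference of -0.79 (adjusted p = 0.0222), against 2.60% of symbols. GRB2 was higher with AZD9496 than with GDC-0810 at 300 nM, with a difference of 0.83 (adjusted p = 0.0412), against 1.12% of symbols. GRB2 was lower with GDC-SAR than with AZD9496 at 30 nM, with a difference of -0.63 (adjusted p = 0.0448), against 4.46%, and at 300 nM, with a difference of -0.68 (adjusted p = 0.0332), against 3.62%. Each of these 7 calls was lost on leaving out any 1 of at least 3 of its 6 libraries, with no filter on low values, and with only the libraries compared, with adjusted p of up to 0.442. Median-of-ratios scaling also ended the GRB2 calls of AZD9496 against GDC-0810 at 300 nM (adjusted p = 0.0649) and of GDC-SAR against AZD9496 at 30 nM (difference -0.45, adjusted p = 0.172). In the remaining 21 pairs no member passed the adjusted threshold, with 0 to 5 members at an unadjusted limma p below 0.05 and 0% to 7.11% of all symbols called.

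A test of whether any of the 6 ligands differed at a given dose does not depend on the choice of a pair. In this limma F test GRB2 passed at 300 nM (adjusted p = 0.0329), 1 of 8 members against 4.91% of all symbols, and no member passed at 30 nM, against 5.11% of all symbols. At 30 nM the lowest adjusted p were those of GRB2 (0.0522), ERRFI1 (0.0851) and ERBB2 (0.0948), and at 300 nM ERBB4 (0.0962) and ERBB2 (0.0982) came next. The GRB2 value at 300 nM did not pass with no filter, with median-of-ratios scaling, with only the libraries compared, or without any 1 of 6 ligand libraries.

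Dose made no called difference. Between 300 and 30 nM no member passed for any of the 6 ligands, and 0% of all symbols were called in each, 0% with fulvestrant, 0% with SAR439859, 0% with GDC-0810, 0% with AZD9496, 0% with GDC-SAR and 0% with AZD-SAR, with 255 to 1713 symbols at an unadjusted limma p below 0.05. The largest member difference was ERRFI1 with SAR439859, which was lower at 300 nM with a difference of -1.02 (adjusted p = 0.233) and passed without replicate 2 of the 30 nM group, the lowest of that group (difference -1.48, adjusted p = 0.0132). ERBB2 differences between doses ran from -0.27 to 0.12.

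The remaining genes of the pathway were counted over the 12 comparisons with DMSO, beside the backgrounds given for those comparisons. Of 11 ERBB ligand genes, 2 reached a mean of 1 TPM, EGF and TGFA, and neither was called with any ligand; AREG and the neuregulin genes NRG1, NRG2, NRG3 and NRG4 averaged under 1 TPM. Of 21 other SH2 and PTB adaptors and enzymes 18 were tested, and 1 to 5 were higher and 0 to 4 lower, with list medians of 0.0019 to 0.29. GAB1, a docking protein that binds GRB2 and recruits PI3-kinase, rose in 12 of 12 groups, to means of 205 to 328 TPM against 125 ± 5.37 TPM in DMSO, with differences of 0.70 to 1.38 (SE 0.16). PIK3R3, a regulatory subunit of PI3-kinase, rose in 11 of 12, with differences of 0.50 to 1.002 in those. SHC2, a relative of SHC1, was called higher in 4, with means of 2.16 to 3.42 TPM there against 0.721 TPM in DMSO, and the kinase gene SRC was called lower in 3 (7 with median-of-ratios scaling).

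Among 19 genes of receptor turnover and negative regulation 17 were tested, and 1 or 2 were higher and 1 to 5 lower. CBLB, a ubiquitin ligase that tags receptors for degradation, rose in 12 of 12 groups, to 5.64 to 10.7 TPM against 2.79 ± 0.798 TPM in DMSO. The chaperones that fold ERBB2 fell: HSP90AB1 was called lower in 11 groups, with differences of -0.71 to -0.45 in those, and HSP90AA1 in 10, with differences of -2.08 to -1.38. STUB1, the ligase that works with such chaperones, was called lower in 7 groups, with differences of -2.30 to -1.65 in those. No protein was measured.

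Components downstream of the receptors changed little as a list. Of 18 RAS to ERK and PI3K to AKT components 17 were tested, with 0 to 5 higher and 0 to 2 lower in a group. BRAF, a kinase below RAS, was called higher in 7, AKT1, a kinase below PI3-kinase, in 6 and PIK3CB, a PI3-kinase catalytic subunit, in 5 (3 with median-of-ratios scaling), while MAP2K1, the kinase that phosphorylates ERK, was called lower in 9 (12 with median-of-ratios scaling). Of 16 MAPK feedback genes 7 were tested, with 0 to 2 higher and 0 or 1 lower. PHLDA1 was called higher in 9 and IER3 lower in 8, and DUSP4, a phosphatase, was called in 1.

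Genes around ERBB2 on 17q12 were not all called in the same direction. Of 15 neighbours 8 were tested, with 0 to 3 higher and 0 or 1 lower. The list medians were 0.19 to 0.42, beside 0 to 0.18 over all symbols. MIEN1, given above, was the most consistently higher, GSDMB was called higher in 5, MED1 in 1 and STARD3 lower in 3, while GRB7 passed in none. Among 14 transcription factors known to bind regulatory regions of ERBB2 or ERBB3, 13 were tested, with 2 to 8 higher and 0 or 1 lower. GATA3 rose in 11 of 12 groups, to means of 2903 to 5623 TPM in those, against 1116 ± 171 TPM in DMSO, FOXA1 in 12 with differences of 0.56 to 1.13, FOXO4 in 9 and ELF3 in 3 (1 with median-of-ratios scaling). Of 19 other receptor tyrosine kinases 12 were tested, with 0 or 1 higher and 0 to 3 lower: INSR, the insulin receptor, was called higher in 9, and RET and FGFR3 lower in 10 and 8, RET with differences of -1.98 to -0.56 in its 10 groups, and EPHB4 in 2 (4 with median-of-ratios scaling). With median-of-ratios scaling 300 of the 322 calls among the list genes passed and none of the 322 changed sign.

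The group means of ERBB2 and ERBB3 moved together over the 13 groups (Pearson's r = 0.90), and those of GRB7 were closer to GRB2 (0.75) than to ERBB2 (0.67). Over the same 13 means, which share the DMSO group and the libraries, the symbols most like ERBB2 among 9628 with a mean of at least 5 TPM were NAPA (0.96), LRBA (0.96) and TRERF1 (0.95). Those most like ERBB3 were IRF2 (0.98), CLMN (0.98) and DDIT4 (0.97), and those most like ERBB4 were PRKACB (0.88), SECTM1 (0.86) and FZD4 (0.85). For GRB2 they were RNF40, ESR1 and PYGB, each at 0.97, and for GRB7 SH3GLB2 (0.96), DCAF11 (0.95) and HIST2H4A (0.94), the last a histone gene with near-identical copies. EGFR was nearest to SIAH1 (0.88), SRI (0.84) and RP3-453C12.14 (0.83), SHC1 to LA16C-360H6.2 (0.86), ABHD14B (0.85) and TOX4 (0.85), and ERRFI1 to PFKFB2 (0.92), DDX52 (0.89) and, at 0.93, a transcript with a clone name of the RP11 series. That transcript was at 0 in every DMSO library and averaged up to 131 TPM in a ligand group. These values describe 13 points and carry no test.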

How the data were processed

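RNA from HCC1428-LTED cells was sequenced from stranded NuGEN libraries, per the labels' protocols. The authors' deposited table holds TPM per symbol for the 39 libraries; STAR and GRCh38 are named in the submitters' processing notes, without version, and the counting step is not given in the sources used here. Each column summed to 1000000, so depth is unknown, and no 2 columns were identical. Groups follow the labels, which give 3 libraries each where the series text speaks of duplicates; replicate numbers follow accession order and pair nothing, and 2 DMSO libraries carry an index sequence that a treated library also carries.

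Values were tested as log2(TPM + 1) with limma 3.58.1 (R 4.3.3), 1 mean per group over all 39 libraries (26 residual degrees of freedom, spread moderated with an intensity trend), for the symbols that averaged 1 TPM or more. P-values were adjusted by the Benjamini-Hochberg method over 14404 symbols within each of 48 comparisons, called below 0.05; 95% intervals use the moderated 29.51 degrees of freedom. The procedure was tested on simulated data. Members and gene lists were chosen with earlier results of these data known. Up to 4 genes of each list were named, those called at least once with the largest mean absolute difference from DMSO. Of the luminal markers all 8 were named. Alternatives were a pseudocount of 0.1, no filter (39392 symbols), median-of-ratios scaling, a fit restricted to the groups compared ("only the libraries compared"), and the omission of 1 library at a time; for 5 other ligand pairs these were added after seeing the data. Promoter windows came from a RefSeq table on GRCh38.p14; protein sequences were not used here.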

Additional observations from a re-analysis of the deposited data

How the results depend on the processing

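Of 2160 recomputed member differences, 2050 kept their side of the threshold, 96 no longer passed and 14 newly passed. The sign changed in 163, all at values that passed in neither fit, and in 0 that passed in either. Counts of called members changed as follows. With no filter on low values, GDC-0810 30 nM and AZD9496 30 nM had 1 member called, GDC-SAR at each dose and AZD-SAR 300 nM had 2, and the F test at 300 nM had 0. With median-of-ratios scaling, SAR439859 300 nM had 3, GDC-0810 300 nM 2, AZD9496 30 nM 1 and the F test at 300 nM 0. With only the libraries compared in the fit, GDC-0810 300 nM, AZD-SAR 300 nM, AZD-SAR against AZD9496 at 300 nM and the F test at 300 nM had 0, fulvestrant 300 nM, SAR439859 30 nM and AZD9496 300 nM had 2 and the F test at 30 nM had 1; this fit has fewer residual degrees of freedom. Leaving out 1 library at a time, the counts ranged from 2 to 3 for fulvestrant at each dose, 2 to 4 and 2 to 3 for SAR439859 at 30 and 300 nM, 1 to 2 and 1 to 1 for GDC-0810, 1 to 2 and 1 to 1 for AZD9496, 1 to 3 for GDC-SAR at each dose, 2 to 3 and 1 to 2 for AZD-SAR, 0 to 1 for AZD-SAR against AZD9496 at 300 nM, 0 to 1 for the SAR439859 doses, and 0 to 2 for the F test at each dose; every other side chain and dose comparison stayed at 0. The cause of each change was not tested. No paired analysis was possible because the labels carry no replicate numbers. Scaling also moved the split of all calls: the share that was higher than DMSO was 59.1% and 57.7% with fulvestrant at 30 and 300 nM (45.9% and 47.0% with scaling), 59.9% with SAR439859 at 30 nM (47.4%), 81.8% and 62.6% with AZD9496 (44.0% and 42.8%) and 57.99% with AZD-SAR at 30 nM (47.5%). It was 9.92% in AZD-SAR against AZD9496 at 30 nM (35.9%) and 25.3% at 300 nM (47.3%).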
